A study of Leucoraja erinaceus with 4 samples.

Results

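In the axial skeleton of little skate embryos, 71 of 23105 assembled features were far higher at stage 33 than at stage 28 and, at stage 33, higher in the synarcual than behind it. They were chosen by their measured values: a largest count of at least 200, a stage fold of at least 2 on the log2 scale (4-fold) averaged over both regions, and a stage 33 region fold of at least 1 on the log2 scale (2-fold) in favour of the synarcual. Without the last condition, 530 features met the rule and are called late-high below. Of these, 202 were at least 2-fold lower in the stage 33 synarcual, 257 were under 2-fold apart and 71 make up the set described here. RNA of Leucoraja erinaceus (also written erinacea) came from 4 groups of 1 library each, which the labels name 28Syn (synarcual, stage 28), 28Psyn (post-synarcual, stage 28), 33Syn (synarcual, stage 33) and 33Psyn (post-synarcual, stage 33). All groups were dissected from males, and the muscle along the axis and the neural tissue had been taken off before RNA was made. No strain, treatment or genotype is given, and the labels do not make clear how many animals went into a library.

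A feature here is a gene as a de novo assembler defined it from the reads, and the files pair no feature with a gene name. The RefSeq table of the species held 0 of the identifiers, and so no function, position or sequence is given for any feature. For the same reason the labelled tissue could not be checked against defining markers of cartilage, muscle, blood or nerve.

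The synarcual is a block of fused cartilage at the front of the vertebral column of skates, rays and chimaeras. It stands behind the skull. The post-synarcual axis keeps separate vertebrae, which bend against each other in swimming. Cartilage of such fishes is laid down by chondrocytes, which secrete collagen and proteoglycans, and parts of it later take up mineral.

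Total counts lay between 3922525 and 5092346 per library. Where a library had 0 counts, up to 3 are allowed for, or between 0.521 and 0.986 CPM. Levels were compared as log2 CPM, in which counts are relative to the size of the library, with trimmed-mean (TMM) scaling and a prior count of 2. That scaling, which sets aside features with extreme ratios between libraries, took the library sizes as 5753483 in 28Syn, 5632893 in 28Psyn, 3899645 in 33Syn and 3042144 in 33Psyn, so both stage 33 libraries count as smaller than those of stage 28. With 1 library per group no difference was tested, and every interval below is a 95% Clopper-Pearson interval that covers counting error only. In these bulk samples, fewer cells of a type and less RNA per cell cannot be told apart, and stage cannot be told apart from the animals of that stage. The labels leave it unclear whether both regions of a stage came from the same males.

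The rule's choice of features rests on the scaling. With libraries scaled to their total counts it chose 54 features, 38 of them among the 71. With the deposited TPM values (levels per transcript length, with an equal sum in every library) it chose 57, of which 40 were among the 71. For every TPM fold on the log2 scale, 1 was added to each TPM, which makes folds smaller where TPM is low. These scalings moved the stage 33 region fold of the median feature to 0.45 on the log2 scale in both cases. The DESeq2 size factors chose 70, of which 68 were shared. The late-high features themselves numbered 333 with total counts and 358 with TPM, against 530 with TMM.

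The 71 features were a small part of each library at stage 28 and a larger one in 33Syn. They took 0.229% of the counts of 28Syn (0.224 to 0.233) and 0.175% of 28Psyn (0.171 to 0.179). At stage 33 they took 1.45% in the synarcual (1.43 to 1.46) and 0.423% in the post-synarcual (0.417 to 0.429). Against all late-high features, they held 6.41% and 2.63% of the late-high counts at stage 28 and 3.34% and 0.763% at stage 33, in the synarcual and post-synarcual in that order. The late-high features as a whole took 3.57% and 6.63% of all counts at stage 28, in the same order. At stage 33 they took 43.3% and 55.4%. The part of the 71 in the late-high counts was thus larger at stage 28 than at stage 33 in each region. Their part of all counts was larger at stage 33, and there larger in the synarcual, as the rule requires in large part. The larger part of the late-high features at stage 33 likewise follows in large part from the rule. These shares are a description.

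Levels of single features spanned a wide range. Counts in 28Syn ran from 0 to 2078 with a median of 54, and in 28Psyn from 0 to 1672 with a median of 39. In 33Syn they ran from 200 to 9544 with a median of 511, and in 33Psyn from 55 to 2794 with a median of 149. All 71 had their largest count in 33Syn. In 69 of the features the 33Psyn count was also above both stage 28 counts.

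**Figure D1:**
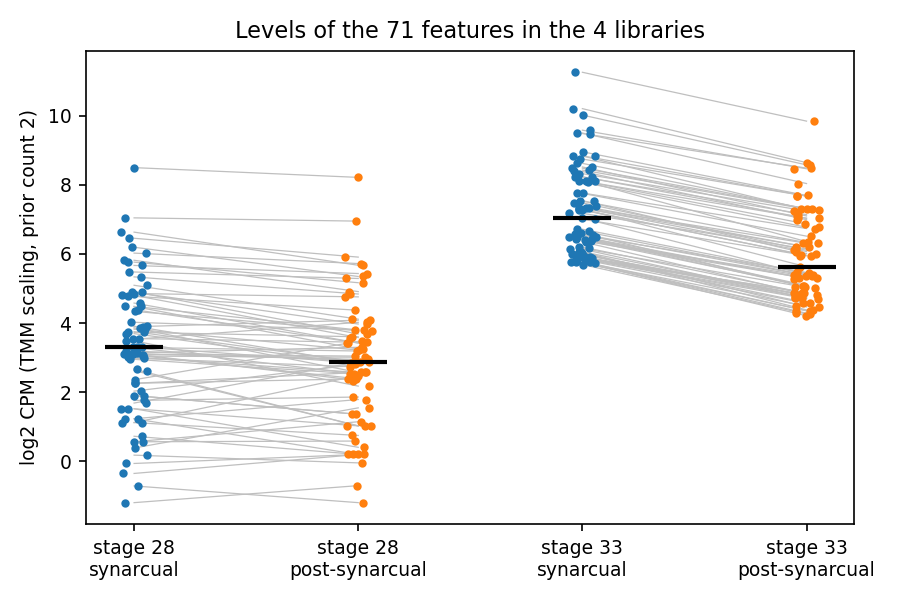
Level of each of the 71 features in the 4 libraries, in log2 CPM, with grey lines joining the same feature in both regions of a stage and black bars at the medians, 3.30 and 2.88 at stage 28 and 7.04 and 5.63 at stage 33. The rule fixed the higher levels at stage 33 and the lower 33Psyn level, while the lines at stage 28 run both up and down.

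Per length, most of the set was of moderate abundance. In 33Syn, 7 features had at least 500 TPM, 25 had between 100 and 500 and 39 had fewer than 100. With all 23105 features ranked by TPM, 2 of the 71 were among the 100 most abundant of that library and 14 among the first 500. In 33Psyn, 5 were among the first 500. The rule asked for at least 200 counts and a higher level in 33Syn, so these numbers follow in part from the choice of features.

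The most abundant by TPM were TRINITY_DN35577_c0_g1 and TRINITY_DN35577_c0_g2, of 1314 and 754 bp. TRINITY_DN35577_c0_g1 had 575 TPM in 28Syn, 518 TPM in 28Psyn, 2997 TPM in 33Syn and 789 TPM in 33Psyn. TRINITY_DN35577_c0_g2 had 417, 430, 2558 and 655 TPM in the same order. Both were well expressed at stage 28 and stood at rank 40 and 49 in 33Syn, against rank 182 and 202 in 33Psyn. From stage 28 to stage 33 the ratio of scaled counts of TRINITY_DN35577_c0_g1 was 6.78 in the synarcual (6.46 to 7.11) and 3.09 in the post-synarcual (2.91 to 3.29). These ratios depend on the scaling: with total counts they were 4.06 and 1.29, and by the deposited TPM 5.21 and 1.52.

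Other features were close to undetected at stage 28. TRINITY_DN36080_c0_g1 (1771 bp) combined the largest mean stage fold and the largest stage 33 region fold of the set. Its counts were 3 in 28Syn, 4 in 28Psyn, 1086 in 33Syn and 248 in 33Psyn. Both stage 28 counts were at or near the floor of detection, and by TPM it stood at rank 491 in 33Syn. Its stage ratio was 534 in the synarcual, with a counting interval of 182 to 2594, and 115 in the post-synarcual, with an interval of 44.3 to 425. TRINITY_DN39497_c1_g1, the next by mean stage fold, had 16, 39, 4602 and 1214 counts in that order of libraries. Its stage ratio was 424 in the synarcual (261 to 743) and 57.6 in the post-synarcual (41.9 to 81.5). These ratios too depend on the scaling, which the counting intervals do not cover. With total counts they were 254 and 24.0 for TRINITY_DN39497_c1_g1, and 320 and 47.8 for TRINITY_DN36080_c0_g1, in the same order of regions.

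The stage difference held in both regions for the set as a whole, as the rule on its mean requires in large part. The log2 stage fold had a median of 3.40 in the synarcual, with a range of 1.93 to 8.52, and a median of 2.66 in the post-synarcual, with a range of 1.41 to 6.16. It was at least 2 in 69 features in the synarcual and in 51 in the post-synarcual. With TMM scaling the counting interval of the stage ratio lay above 1 in 71 of 71 features in each region. The rule used these stage values, so that count is a description. The size of the stage folds rests on the scaling. With total counts every stage fold is lower: before the prior count is added, log2 values drop by 0.74 for the synarcual and by 1.27 behind it. For the same 71 features, in an alternative added after the data were seen, the synarcual median was then 2.68 and the post-synarcual median 1.44 on the log2 scale, and with TPM they were 2.94 and 1.52. A log2 stage fold of at least 2 in the post-synarcual was found in 27 features with total counts and in 28 with TPM. All 71 were above 0 there with both, the lowest at 0.18 with total counts and 0.37 with TPM. No intervals were taken with these 2 scalings. With TMM the stage fold was larger in the synarcual in 64 of the 71 and larger in the post-synarcual in 7, and with total counts or TPM it was larger in the synarcual in 71. That order follows in part from the rule, which asked for a region difference at stage 33 and set no condition on that of stage 28.

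The region folds of the 71 at stage 33 lay in a narrow band above the threshold that chose them. The log2 fold ran from 1.0 to 1.77, with a median of 1.27 and a standard deviation across features of 0.19. As ratios of scaled counts, the summed counts of the set were 2.47-fold higher in the synarcual (2.43 to 2.51). For 53 of the 71 the counting interval of their own ratio held the median fold of 2.42, for 9 it lay above and for 9 below. These values chose the set and are a description. Over all features with at least 50 counts in the higher stage 33 library, 6.31% were at least 2-fold higher in the synarcual. TRINITY_DN36080_c0_g1 had the highest ratio, 3.42 (2.97 to 3.94), and TRINITY_DN41053_c0_g1 (3807 bp) followed with 3.21 (2.68 to 3.87), from 613 counts in 33Syn and 149 in 33Psyn.

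Features this much higher in 33Syn were found at every stage fold. Of all 5314 features with a largest count of at least 200, 278 had a stage 33 log2 region fold of at least 1, and the 71 late-high ones were 25.5% of those. By mean log2 stage fold, the share was 14.9% of the 450 features between 1 and 2, 13.4% of the 530 late-high features, 4.35% of those between 0 and 1 and 1.76% of those between -1 and 0. It was 3.64% between -2 and -1, and 7.96% of the 201 features with a mean stage fold below -2. The late-high class also held 202 features at least 2-fold lower, which was 38.1% of it, against 9.33% of the features between 1 and 2. With TMM scaling the 71 are thus the smaller of the opposite tails of the late-high class at stage 33.

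The threshold on the region fold had late-high features on both sides and lay at the upper end of a thinner stretch. Among late-high features, 35 had a log2 fold from 0 to 0.25, 33 from 0.25 to 0.5 and 16 from 0.5 to 0.75. A further 16 had one from 0.75 to 1, while 32 had one from 1 to 1.25, 28 from 1.25 to 1.5 and 10 from 1.5 to 1.75. Just inside lay TRINITY_DN32022_c0_g1 (1308 bp), with 2792 counts in 33Syn and 1088 in the post-synarcual, a log2 fold of 1.0, and TRINITY_DN32692_c0_g1 (2085 bp), with 230 and 88 counts and a log2 fold of 1.02. Just outside lay TRINITY_DN39489_c10_g1, at 0.9996 with 950 and 370 counts, and TRINITY_DN36133_c1_g1, at 0.95 with 230 and 92. Their counting intervals overlap those of the features inside. On the stage side, 8 members had a mean log2 stage fold from 2 to 2.1, and 4 features from 1.9 to 2 met the other conditions.

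The region difference at stage 28 is the contrast of the 4 libraries that the rule did not use. Most of the 71 were already somewhat higher in the synarcual at stage 28, by less than at stage 33. The log2 fold had a median of 0.43, with quartiles of 0.05 and 0.86 and a range of -1.36 to 1.64. It was above 0 in 54 features and below 0 in 17, so 76.1% were above, beside 54.3% of all features with a largest count of at least 200. The summed counts were 1.36-fold higher in the synarcual (1.32 to 1.40), against the 2.47-fold of stage 33. The spread between features was wider than at stage 33, with a standard deviation of 0.66 on the log2 scale, and the counts were fewer. The rule bounded the stage 33 fold from below and left the stage 28 fold free. The smaller size and wider spread at stage 28 thus follow in part from the choice of features.

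Of the 71 features, 39 had at least 50 counts in the higher stage 28 library, and only these can pass the rule of size. Of those 39, 7 were at least 2-fold higher in the synarcual and 1 was at least 2-fold lower. Of the 7, 3 reached 50 counts only in the library where they were higher, as did the 1. A minimum on the higher library favours features that differ, so the counts are a description. Over all features with that many counts at stage 28, 4.39% were at least 2-fold higher in the synarcual and 4.93% at least 2-fold lower. The share of the set was 17.9% higher and 2.56% lower. With total-count scaling and the features chosen anew, the numbers were 2 higher and 3 lower, and with TPM 1 higher and 4 lower. No share over all features was taken with those scalings, so these numbers cannot be set against one. Asking instead for a mean of at least 50 counts over both stage 28 libraries, an alternative added after the data were seen, 34 of the 71 remained eligible, with 6 higher and 0 lower. Over all features with such a mean, 3.74% were higher and 4.24% lower. For the same 71 features held fixed, the median was 0.38 with total counts and 0.26 with TPM, and 53 and 47 of them were above 0. The TPM folds include the added 1. The median TPM of the 71 was 6.26 in 28Syn and 6.21 in 28Psyn, so scaling and that addition are not separated there. Holding the features fixed was an alternative added after the data were seen.

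The counting intervals show how far stage 28 counts reach. In 29 of the 71 features the interval of the stage 28 ratio lay above 1, in 5 it lay below 1, and in 37 it held 1. The first 2 counts are 40.8% and 7.04% of the set, beside 32.7% and 26.0% of all features with a largest count of at least 200. Where it held 1, a region difference was not detectable at this depth. The remaining late-high features had other stage 28 values. The 257 under 2-fold apart at stage 33 had a median log2 fold of -0.43 at stage 28 and 29.2% above 0, and the 202 lower in 33Syn had a median of -1.63 and 7.43% above 0. Each of these groups shares its 4 libraries with the set, and no test of the difference between groups was possible with 1 library per group.

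**Figure D2:**
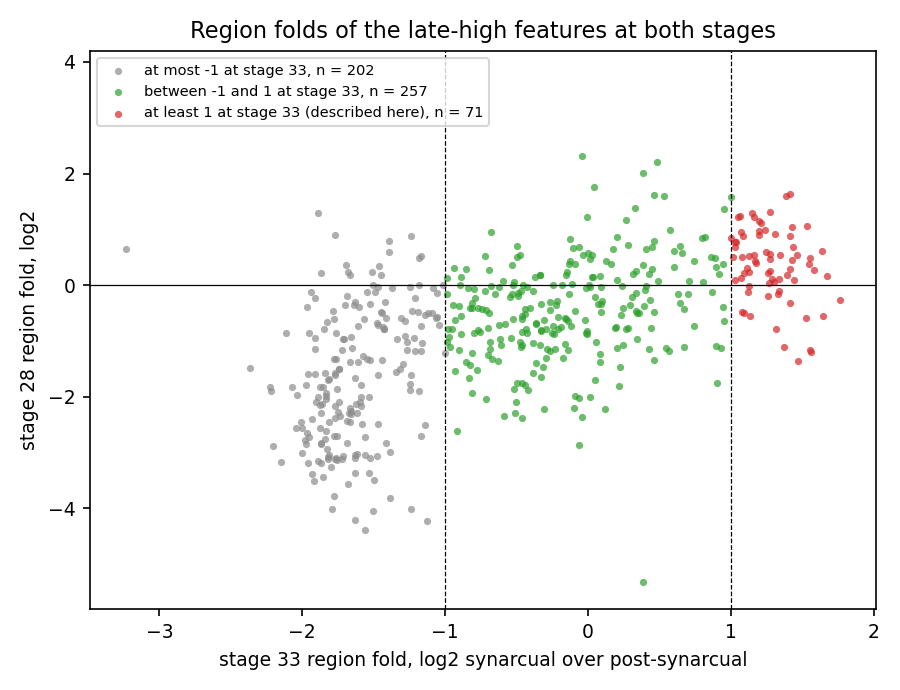
Region fold at stage 33 (horizontal axis) against region fold at stage 28 (vertical axis), both log2 of synarcual over post-synarcual, for the 530 late-high features. Dashed lines mark -1 and 1 at stage 33, where the colours are divided, and the 71 features described here (right) have a stage 28 median of 0.43, against -0.43 and -1.63 in the middle and left groups.

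In the 7 features that passed the 2-fold rule at both stages, that rule bounded both ratios from below. A like size of the ratios thus follows in part from the choice of features. TRINITY_DN38810_c0_g3 (3376 bp) had 62 counts in 28Syn, 23 in 28Psyn, 210 in 33Syn and 67 in 33Psyn. Its ratio was 2.64 at stage 28 (1.61 to 4.46) and 2.45 at stage 33 (1.85 to 3.27), so the intervals overlap. TRINITY_DN36455_c0_g1 had 81, 31, 224 and 78 counts in that order, with a ratio of 2.56 at stage 28 (1.67 to 4.01) and 2.24 at stage 33 (1.72 to 2.94). In both, the intervals of the stage ratio overlapped between the regions: that of TRINITY_DN38810_c0_g3 was 5.0 in the synarcual (3.75 to 6.75) and 5.39 in the post-synarcual (3.31 to 9.08). With total counts the order of these was the other way, at 2.99 and 2.24. The other 5 of the 7, singled out by the rule of size alone, had stage 28 ratios from 2.16 to 2.42 and counts in 28Syn from 84 to 170. The most abundant of the 7 was TRINITY_DN42381_c5_g1, named after its values were seen, with 435 TPM in 33Syn and counts of 170, 70, 1785 and 620.

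At the other end, TRINITY_DN40978_c1_g2 had region differences of opposite direction at the stages. It had 27 counts in 28Syn and 60 in 28Psyn, against 694 and 208 at stage 33. Its level was 2.27-fold lower in the synarcual at stage 28 (1.42 to 3.72) and 2.60-fold above 33Psyn at stage 33 (2.23 to 3.05). The stage ratio was 37.9 in the synarcual (25.8 to 58.0) and 6.42 in the post-synarcual (4.80 to 8.70), and these intervals do not overlap. With total counts the stage ratios were 22.7 and 2.67. TRINITY_DN38404_c1_g1 (1418 bp), the next lowest at stage 28 among the features with enough counts, had 64, 89, 1248 and 459 counts. It was 1.42-fold lower in the synarcual at stage 28 (1.02 to 1.99) and 2.12-fold above 33Psyn at stage 33 (1.9 to 2.37). Whether the region difference differs between the stages was not tested for either feature, since each group has 1 library.

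The stage 28 fold varied with the stage fold within the set. Of the 33 features with a mean log2 stage fold from 2 to 3, 33 had a stage 28 log2 fold above 0. Their median was 0.56 and their lowest value 0.03. The counting interval of the ratio lay above 1 in 21 of these 33 and below 1 in 0, and in the rest it held 1. From 3 to 4, 11 of 16 were above 0 and the median was 0.42, and from 4 to 5, 6 of 10 were above 0 with a median of 0.22. From 5 upward, 4 of 12 were above 0 and the median was -0.29. The summed counts gave ratios of 1.39 (1.34 to 1.44), 1.44 (1.32 to 1.56), 0.956 (0.811 to 1.13) and 0.747 (0.591 to 0.942) in the same order, so they ran the same way at the ends. The highest class holds few counts: the median of the higher stage 28 count was 126 in the lowest class and 6.5 in the highest. Of the 12 features in the highest class, the interval lay below 1 in 2 and above 1 in 0. This class includes TRINITY_DN39497_c1_g1 (16 counts in 28Syn, 39 in 28Psyn) and TRINITY_DN39497_c0_g1 (5 and 14), which may be pieces of 1 gene. It also holds TRINITY_DN41883_c1_g1 (4 and 3), TRINITY_DN41883_c2_g1 (0 and 1) and TRINITY_DN41883_c1_g5 (1 and 0), which may likewise be pieces of 1 gene. The latter were named after their values were seen, and the class count and median take each feature as separate. The summed ratio of the class was not taken without the TRINITY_DN39497 pair, so its interval below 1 may rest on 1 gene.

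Across the 71 features the mean stage fold and the stage 28 region fold had a Pearson r of -0.49 and a Spearman rho of -0.44, and across the 39 with at least 50 counts at stage 28 the values were -0.37 and -0.28. The features share the same 4 libraries and are not independent replicates, and the stage 28 counts enter both measures. In the other late-high features the values were -0.15 and -0.24, over 459 features. The middle group had medians of -0.41, -0.43, -0.48 and -0.49 in the 4 classes from lowest to highest stage fold, and the group lower in 33Syn had -0.79, -1.53, -2.14 and -2.09.

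**Figure D3:**
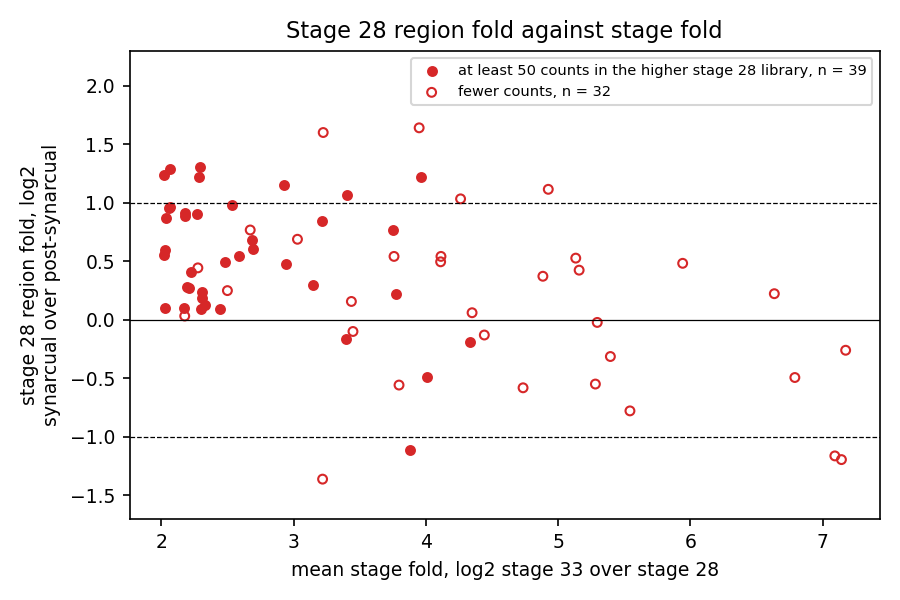
Mean stage fold (horizontal axis, log2 of stage 33 over stage 28) against stage 28 region fold (vertical axis, log2 of synarcual over post-synarcual) for the 71 features, filled where the higher stage 28 count was at least 50 (n = 39) and open elsewhere (n = 32). All 33 features with a stage fold under 3 lie above 0, and those above 5, all open, lie mostly below. The counting interval of the stage 28 ratio lay above 1 in 21 of those 33.

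Grouped by how much was present at stage 28, the set ran from features close to undetected to features with a well measured level. In 9 features the higher stage 28 count was 10 or fewer. These had a median log2 stage fold of 5.30, a median of 138 TPM in 33Syn, and stage 28 ratios whose intervals held 1 in 9 of 9. In 23 features the higher stage 28 count was between 11 and 49, and 15 of them had a fold above 0. In the 39 with 50 or more, 35 were above 0, the median log2 stage fold was 2.31 and the median was 107 TPM in 33Syn. Since every feature had at least 200 counts in 33Syn, larger stage folds at low stage 28 counts follow in part from this grouping. The stage 33 region fold, which the rule bounded from below, had medians of 1.53, 1.34 and 1.20 in these groups.

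Some of the 71 may be pieces of 1 gene, because assembled features can share the DN number of their identifiers. Features with the same DN number are called a cluster here, whatever their c number. The 71 came from 67 clusters, and 7 of them shared 3 clusters. TRINITY_DN39497_c0_g1 (1031 bp) had 5, 14, 1779 and 471 counts and followed TRINITY_DN39497_c1_g1 in every library. The ratio of their counts was 0.313 in 28Syn (0.0895 to 0.893), 0.359 in 28Psyn (0.180 to 0.676), 0.387 in 33Syn (0.366 to 0.408) and 0.388 in 33Psyn (0.348 to 0.432). All 4 intervals overlap, so at this depth the pair could not be told from a fixed ratio. At stage 28 the ratio of post-synarcual over synarcual was 2.86 for TRINITY_DN39497_c0_g1 (0.973 to 10.2), whose interval holds 1, and 2.49 for TRINITY_DN39497_c1_g1 (1.36 to 4.77). At stage 33 the ratio of synarcual over post-synarcual was 2.95 (2.66 to 3.27) and 2.96 (2.77 to 3.15).

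The pair TRINITY_DN35577_c0_g1 and TRINITY_DN35577_c0_g2 had nearly fixed count ratios too. The ratio of the second to the first was 0.364 in 28Syn (0.335 to 0.396), 0.415 in 28Psyn (0.379 to 0.454), 0.424 in 33Syn (0.409 to 0.440) and 0.416 in 33Psyn (0.388 to 0.445). The ratio in 28Syn was below that in 33Syn beyond counting error, and the intervals of all other pairs of libraries overlap. At stage 28 the region ratio was 1.22 for TRINITY_DN35577_c0_g1 (1.14 to 1.30) and 1.07 for TRINITY_DN35577_c0_g2 (0.962 to 1.19). With TPM the latter's log2 fold was -0.04, so its direction at stage 28 is not settled. At stage 33 their ratios were 2.66 (2.55 to 2.78) and 2.72 (2.55 to 2.90).

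The third cluster, singled out after its values were seen, held TRINITY_DN41883_c1_g1, TRINITY_DN41883_c2_g1 and TRINITY_DN41883_c1_g5, with 626, 324 and 210 counts in 33Syn and 203, 118 and 55 in the post-synarcual. None of them had more than 4 counts in a stage 28 library. Reads of one gene may therefore be split between features in these clusters, and members of a cluster are not independent of each other.

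Of the 71 features, 21 had another feature of the same cluster in the table, or 29.6%. The share was 25.8% of all features with at least 200 counts and 33.1% of the other late-high features. For 11 of the 71, or 15.5%, another feature shared the c number as well as the DN number, beside 12.1% and 17.0%. These clusters held 20 features outside the set, 15 of them with a largest count of at least 50. Of those 15, 2 had a mean log2 stage fold of at least 2, and 10 had a stage 33 region fold above 0. Relatives with the full pattern and at least 200 counts are members by the rule, so these counts say nothing of how often features of a cluster share a pattern. Both of the 2, singled out after their values were seen, were under the count minimum of 200 and close to the set in pattern. TRINITY_DN40978_c1_g1 had 10, 17, 160 and 63 counts, and TRINITY_DN42150_c0_g2 had 14, 8, 152 and 39. Among the rest was TRINITY_DN39748_c5_g1, with 348, 223, 72 and 51 counts, which were lower at stage 33, while TRINITY_DN39748_c5_g2 of the set had 2, 4, 253 and 62.

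Length and transcript number were close to those of other features. The median length was 2456 bp, with quartiles of 1652 and 3800 bp, beside 2659 bp for all features with at least 200 counts and 2306 bp for the other late-high features. More than 1 transcript was assembled for 20 of the 71, or 28.2%, beside 27.9% of all features with at least 200 counts.

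The deposited length is weighted by the estimated abundance of a feature's transcripts, so it can move between libraries where the transcript mix differs. Among the 20 features with more than 1 transcript it varied by over 10% across the 4 libraries in 11. TRINITY_DN42458_c1_g1 varied most, with 3406 bp in 28Syn, 2930 bp in 28Psyn, 3808 bp in 33Syn and 3420 bp in 33Psyn. It was longer at stage 33 than at stage 28 within each region, and longer in the synarcual within each stage. TRINITY_DN38639_c2_g1 had 1209, 1360, 1535 and 1512 bp, from 11 and 17 counts at stage 28. In TRINITY_DN40978_c1_g2, lower in 28Syn and higher in 33Syn, the length was 3084 bp in 3 libraries and 2456 bp in 33Syn. Between the stage 33 regions alone, 2 of the 20 differed by over 10%, by at most 20.4%. The files give no error for these lengths.

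**Figure D4:**
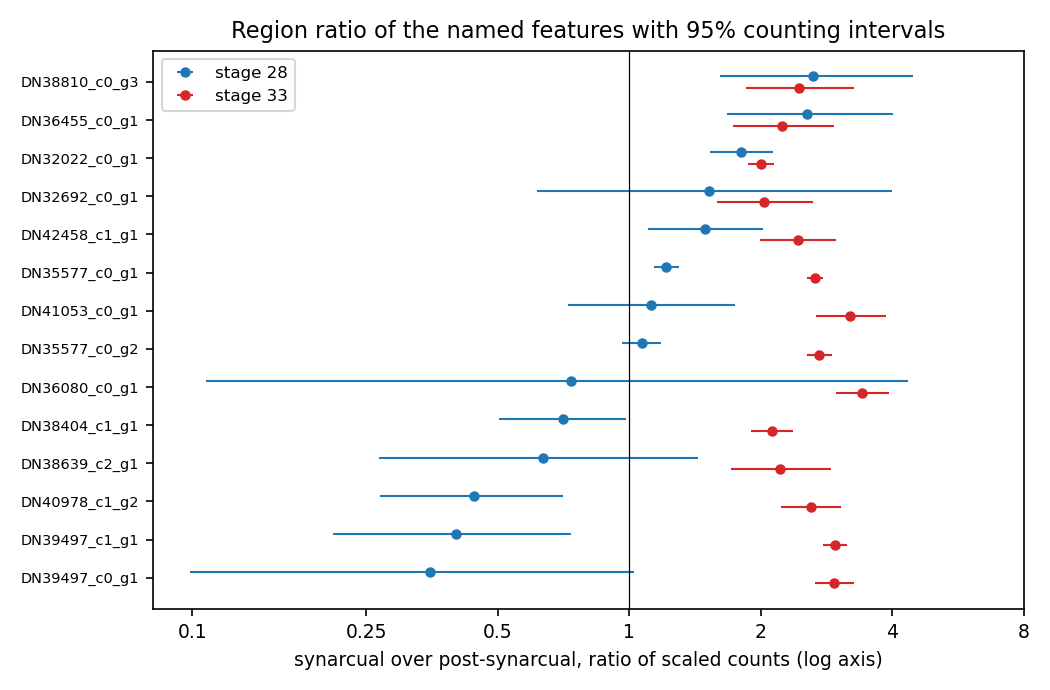
Ratio of synarcual over post-synarcual (log axis, scaled counts) at stage 28 and stage 33 for the 14 members named by rule, with 95% counting intervals, ordered by the stage 28 ratio and with the prefix TRINITY left off. At stage 33 the ratios run from 2.0 to 3.42 as the rule requires, while at stage 28 they run from 0.350 to 2.64.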

How the data were processed

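Per the file headers, each library's deposited values are expected counts (also called estimated counts) of every assembled gene, a TPM, an FPKM and a length weighted over transcripts. The deposited TPM values were used for levels per length, and the deposited FPKM values in no comparison. The submitters' processing notes name Bowtie2 and RSEM without versions, and the kit was unstranded per the labels' protocols. The sources used here do not say if reads or pairs were counted, and intervals are too narrow if reads were.

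Estimated counts were rounded (1.66% to 1.89% of values per library were not whole). TMM factors were computed with edgeR 4.0.16 under R 4.3.3, over the 14668 features that reached 10 counts in 2 or more libraries. Ratios are of scaled counts and log2 folds of log2 CPM. A difference at stage 28 was counted from 2-fold where the higher library had 50 or more counts. The stage 28 region folds and their intervals were checked on simulated counts with counting error alone, for features with high expected counts in every library. That check did not cover low stage 28 counts or variation between animals. Features were named by criteria of size, at most 2 per criterion: TPM in the stage 33 synarcual, region fold at each stage, stage fold, nearness to the region threshold and change of length, plus the 2 shared clusters with most counts. The rule, its members and these criteria were chosen with earlier results of these data known.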

Additional observations from a re-analysis of the deposited data

Results flagged for a closer look

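In 5 features that were at least 2-fold higher in the stage 33 synarcual, the counting interval of the stage 28 ratio lay wholly on the other side, so the region difference pointed opposite ways at the stages. They are 7.04% of the set, beside 26.0% of all features with a largest count of at least 200 whose stage 28 interval lay on that side. The 26.0% sets no condition on stage 33, so it is not a share of features that change direction. These shares are also not matched for counts at stage 28. With 1 library per group, that change of direction was not tested. The log2 region fold at stage 28 was -1.36 in TRINITY_DN40324_c0_g1, from 10 counts in the synarcual against 29 behind it, against 1.47 at stage 33. In TRINITY_DN39497_c1_g1 it was -1.19 against 1.56. In TRINITY_DN40978_c1_g2 it was -1.11 against 1.37. TRINITY_DN41089_c0_g1 had 21 and 37 counts at stage 28, a log2 fold of -0.78, against 1534 and 479 counts and 1.32 at stage 33. In TRINITY_DN38404_c1_g1 the values were -0.49 and 1.08. The last 2 lie close to no difference at stage 28: as post-synarcual over synarcual, the lower bounds of their ratios were 1.03 and 1.02.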

How the results depend on the processing

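The number of features chosen was 52 to 95 under 10 of the 12 alternatives, but 111 with a largest count of at least 100 and 36 with at least 500. The median stage 28 log2 fold of the features chosen kept its sign under all 12. It was 0.13 with total counts, 0.28 with upper-quartile factors, 0.063 with TPM, 0.38 with no filter before scaling, 0.28 with a prior count of 5, 0.26 at 500 counts, 0.25 by the synarcual stage fold alone and 0.50 by the post-synarcual one. At stage 28, features with a 2-fold or larger excess in the synarcual numbered 2 with total counts, 1 with TPM, 3 at 500 counts and 4 with at least 100 stage 28 counts. Those with as large a deficit numbered 3 with total counts, 4 with TPM and 4 by the synarcual stage fold alone. With at least 20 stage 28 counts they numbered 3, and 0 both with at least 100 and with a mean of at least 50. For total counts, TPM and the stage 28 minimums of 20 and 100, no share over all features was taken. The numbers there are a description only. For the 71 held fixed, the median log2 stage fold was 2.68 and 1.44 with total counts and 2.94 and 1.52 with TPM (synarcual, post-synarcual), against 3.40 and 2.66. The features that total counts chose held 0.0839% and 0.0678% of stage 28 counts and 1.06% and 0.355% of stage 33 counts (synarcual, post-synarcual). Scaling moves which features enter the set, and the TPM alternative also adds 1 to each TPM before the log2 step. Why the stage 28 values moved was not tested. Of 112 alternative stage 28 folds of the 14 named members, 1 changed sign, that of TRINITY_DN35577_c0_g2 with TPM (-0.04). No paired analysis was possible because no result here comes from a test: a region fit with stage as a block would keep 1 residual degree of freedom, but it would average in the stage 33 region fold that chose the features. No library could be left out, since the rule needs all 4. Low stage 28 counts and the scaling both limit the region folds there.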
